A study of Homo sapiens with 6 samples.

Results

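Olfactory receptor genes of families 1 to 4 were described as a set of dim genes in AGS, an established human gastric adenocarcinoma line of epithelial origin. A gene belonged to the set when its symbol in the platform annotation was OR1, OR2, OR3 or OR4 followed by a letter and a number and at least 1 probe set named that gene alone. The rule found 120 of the 18656 genes measured, 25 of family OR1, 48 of OR2, 4 of OR3 and 43 of OR4. The rule itself uses names only, but the set was proposed with earlier results of these data known. Levels are log2 signals on Affymetrix Human Gene 1.0 ST arrays. A gene was read as the mean over its probe sets, which are groups of probes that each cover about 1 exon.

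The study compared AGS cells transfected with an anti-miR inhibitor of the microRNA miR-25-3p (3 arrays) with cells given non-targeting control RNA (3 arrays). Both groups were grown alike and transfected with the same lipid reagent, both transfections were repeated after 24 h, and RNA was taken 48 h after the first. Control cells therefore also carried a transfected oligonucleotide, and no untransfected arrays were analysed here. The labels call the 3 samples of a group biological replicates of 1 cell line, and p-values measure only the spread between these samples.

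Olfactory receptors are G protein-coupled receptors with which sensory neurons of the nose detect volatile molecules. Each mature neuron usually transcribes a single receptor gene from 1 allele, and the other receptor genes of that cell are kept in closed chromatin. The genes lie in clusters, most have their coding sequence in 1 exon, and transcripts of some have been reported in tissues other than the nose. A bound receptor activates the G protein subunit GNAL, adenylyl cyclase ADCY3 makes cyclic AMP, and the channel formed by CNGA2, CNGA4 and CNGB1 opens.

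The bases before the annotated start are shown for the members with the highest level (OR2W3), the widest range between probe sets (OR2H2), the lowest level (OR4C5) and for a bright member with many CpG dinucleotides (OR1F1). They are windows of 250 bases on RefSeq assembly GRCh38.p14, at chr1:247895337-247895586 (plus strand), chr6:29584871-29585120 (plus strand), chr11:48366466-48366715 (minus strand) and chr16:3187954-3188203 (plus strand). For OR2W3 and OR4C5 the annotated start is the ATG itself, so these windows may not be promoters. Capitals mark CG.
OR2W3: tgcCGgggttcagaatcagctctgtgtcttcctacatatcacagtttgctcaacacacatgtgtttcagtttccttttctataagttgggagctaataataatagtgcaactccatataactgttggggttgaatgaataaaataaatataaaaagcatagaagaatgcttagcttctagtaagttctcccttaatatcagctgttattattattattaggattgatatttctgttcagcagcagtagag
OR2H2: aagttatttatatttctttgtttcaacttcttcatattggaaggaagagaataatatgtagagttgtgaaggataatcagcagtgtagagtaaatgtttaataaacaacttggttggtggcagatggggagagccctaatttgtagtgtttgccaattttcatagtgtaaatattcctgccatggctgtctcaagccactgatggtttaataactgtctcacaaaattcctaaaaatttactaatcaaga
OR4C5: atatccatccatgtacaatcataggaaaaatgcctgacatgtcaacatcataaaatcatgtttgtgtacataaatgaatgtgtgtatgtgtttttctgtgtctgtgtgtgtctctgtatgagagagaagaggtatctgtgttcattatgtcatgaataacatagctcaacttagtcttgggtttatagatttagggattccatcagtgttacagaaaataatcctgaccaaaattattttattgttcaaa
OR1F1: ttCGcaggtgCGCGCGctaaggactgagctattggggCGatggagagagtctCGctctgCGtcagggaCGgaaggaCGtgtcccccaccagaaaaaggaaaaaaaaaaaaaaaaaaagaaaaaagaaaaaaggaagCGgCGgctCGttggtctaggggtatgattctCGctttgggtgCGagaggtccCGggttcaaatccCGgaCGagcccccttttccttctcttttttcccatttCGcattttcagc
The strand shown holds 1 CG in the OR2W3 window, 0 in the OR2H2 window, 0 in the OR4C5 window and 18 in the OR1F1 window. The OR1F1 window has 51.2% G and C, against 34.8% for OR2W3, 33.6% for OR2H2 and 32.8% for OR4C5. RefSeq places tRNA genes within OR1F1 and a further tRNA gene next before it. How many of the CG in this window belong to a tRNA gene was not counted.

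The microRNA whose inhibitor was given is shown with its seed, bases 2 to 8, in capitals, from RefSeq at chr7:100093571-100093592 (minus strand).
hsa-miR-25-3p: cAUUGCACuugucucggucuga
The seed is the stretch that pairs with target messages, and no site was searched for in the receptor transcripts.

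The 4 windows were picked for the extremes named above, and OR1F1 is of a small class with many CG. RefSeq held a window for 88 of the 120 members, and their median content was 37.2% G and C with 1 CG, against 58.0% and 11 CG over all 35116 windows. No CG at all was present in 25 of the 88 (28.4%) and in 6.06% of all windows, while 5 or more were present in 6 of the 88 (6.82%) and in 65.7% of all windows. The 6 were OR3A2 (31), OR1F1 (18), OR2L13 (16), OR1A1 (6), OR3A1 (6) and OR1L6 (5). For 35 of the 88 (39.8%), and 2.29% of all windows, the annotated start was the ATG itself, OR2W3 and OR4C5 among them. The 184 windows of other olfactory receptors had the same medians, 37.2% G and C and 1 CG. Across the 88 members, Spearman's rho with the array level was 0.17 for G and C content and 0.051 for the number of CG, as a description over genes that share clusters and arrays.

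Nearly all members were dim. Their levels ran from 1.59 to 5.58 with a median of 2.66 and quartiles of 2.26 and 3.35, whereas all genes had a median of 5.77 and a lower quartile of 4.03. Every one of the 120 members was below the median of all genes, OR2W3 only while its identical probe sets were each counted, and 108 (90.0%) were below the lower quartile. A level under 3 was found for 78 members, from 3 to 4 for 29 and at 4 or more for 13. Detection p-values were not used here, and the signal of a probe set depends on its probes as well as on the RNA, so these levels rank array signals and do not show that a gene is silent. Fewer transcribing cells and less RNA per cell cannot be told apart in bulk RNA.

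**Figure D1:**
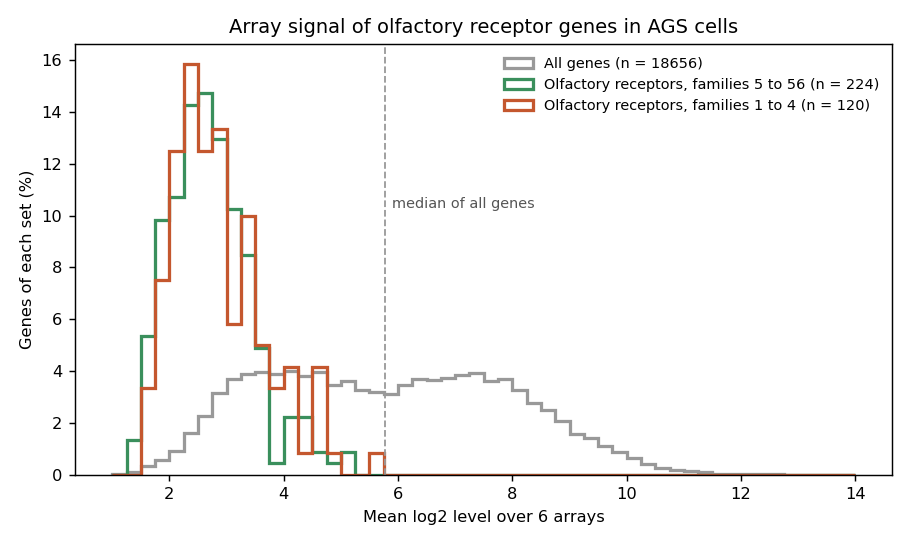
Mean log2 level over the 6 arrays (x axis) against the percentage of genes of each set (y axis) for all genes (grey, n = 18656), olfactory receptors of families 5 to 56 (green, n = 224) and of families 1 to 4 (orange, n = 120), with a dashed line at the median of all genes. Both receptor sets peak between 2 and 3, and no member of families 1 to 4 passes the dashed line at 5.77, OR2W3 being drawn with its identical probe sets each counted.

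Other chemosensory receptor sets lay in the same range. The 224 olfactory receptors of families 5 to 56 had a median of 2.67 (1.44 to 5.16), and the 26 taste receptors a median of 3.20 (1.70 to 5.53). Within the set, the family medians were 2.59 for OR1, 2.84 for OR2, 3.76 for the 4 OR3 genes and 2.61 for OR4. Of 47 subfamilies, 8 had at least 5 members, with medians from 2.13 for OR2M to 3.32 for OR4D. A subfamily was no narrow class, since OR2M alone ran from 1.60 for OR2M2 to 4.74 for OR2M5.

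The members with no other receptor beside them on the chromosome had the highest median level. In the RefSeq gene order, 73 members had an olfactory receptor gene or pseudogene on both sides and a median level of 2.59, 34 had one on a single side and a median of 2.69, and 13 had none and a median of 3.60. The ranges overlapped widely, at 1.59 to 4.85, 1.60 to 5.58 and 2.33 to 4.63. This order was noticed in the data and is given without a test.

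OR2W3 was the brightest member. It read 5.84, 5.40 and 5.53 on control arrays 1 to 3 and 5.52, 5.68 and 5.51 on inhibitor arrays 1 to 3. The groups overlapped, and the mean of 5.58 was at the percentile 47.7 of all genes. In RefSeq it lies between TRIM58 (5.48), a gene of red cell maturation, and another receptor, OR2T8 (3.60).

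The level of OR2W3 rested on which probe sets were averaged. Its brightest probe set read 8.71, 7.86 and 8.29 on the control arrays and 8.59, 8.47 and 7.95 on the inhibitor arrays, a mean of 8.31. Probe sets were not placed in exons, introns or neighbouring genes here, so which transcript this one reads is not known. The other 3 probe sets carried identical values on all 6 arrays, 4.89, 4.58 and 4.61 on control and 4.50, 4.75 and 4.70 on inhibitor arrays. With these 3 counted once, a setting chosen after seeing the data, OR2W3 was at 6.49 and above the median of all genes, at the percentile 60.0. Both kinds of probe set overlapped between the groups, with differences of 0.05 and -0.04.

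OR2H2, a receptor of the major histocompatibility region, had 7 probe sets, the most of any member, and its mean of 4.54 covered probe sets from 1.68 to 6.40. The brightest read 6.74, 6.15 and 6.15 on control and 6.46, 6.69 and 6.18 on inhibitor arrays, and the second brightest averaged 6.04. The gene value hardly moved between arrays, at 4.49, 4.59 and 4.43 against 4.57, 4.58 and 4.55. Its neighbour on one side is GABBR1 (5.18), a subunit of the GABA-B receptor. OR2W3 and OR2H2 had the widest ranges between probe sets, 3.64 and 4.72.

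**Figure D2:**
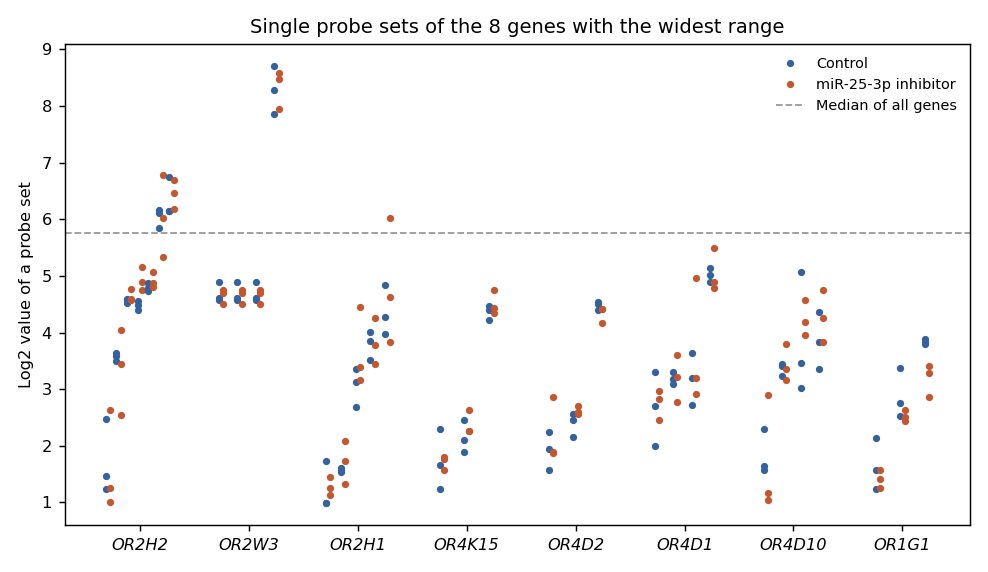
Log2 value (y axis) of every probe set on every array for the 8 members with the widest range between their own probe sets (x axis), control arrays in blue and inhibitor arrays in orange, with a dashed line at the median of all genes (5.77). OR2W3 has 1 probe set near 8.31 and 3 identical ones at 4.67, and OR2H2 spreads from 1.68 to 6.40.

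The other probe sets were dim as well. The set had 168 probe sets with a median of 2.71 (1.14 to 8.31), of which 139 (82.7%) were below the lower quartile of all single-gene probe sets (3.98) and 2 were above their median (6.17). Only 4 reached 5, and 28 reached 4. OR2H1, a further receptor of the histocompatibility region, showed how 1 array can set a value: its brightest probe set read 3.98, 4.84 and 4.27 on control arrays and 3.84, 6.02 and 4.63 on inhibitor arrays, with inhibitor array 2 far above the rest.

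The next brightest members after OR2W3 were OR3A3 (4.85), OR2M5 (4.74), OR2Z1 (4.63), OR2S2 (4.59), OR2H2 (4.54), OR1F1 (4.52), OR1I1 (4.34), OR1M1 (4.19) and OR4D5 (4.18). OR3A3 read 5.15, 4.76 and 4.69 on control and 5.04, 4.68 and 4.76 on inhibitor arrays, and array 1 was the highest in both groups. OR2M5 read 4.52, 4.67 and 4.87 on control and 4.68, 4.71 and 5.01 on inhibitor arrays, so that its groups overlapped. Of these 9, OR2Z1 and OR1I1 had groups of arrays that did not overlap, and their values are given with the comparison.

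At the other end stood OR4C5 (1.59), OR2M2 (1.60), OR2T4 (1.69), OR1S1 (1.75), OR4C45 (1.82) and OR2A25 (1.83). OR4C5 read 1.64, 1.63 and 1.35 on control and 1.73, 1.65 and 1.52 on inhibitor arrays. OR2M2 read 1.65, 1.54 and 1.56 on control and 1.70, 1.57 and 1.58 on inhibitor arrays. Both overlapped between the groups. Over the 120 members Spearman's rho between level and replicate SD was 0.018, as a description.

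Receptors with a known odorant or a reported role outside the nose lay between 2.02 and 3.76. OR1A1, which responds to citronellal, was at 2.66 and its close relative OR1A2 at 2.46. OR1D2, the bourgeonal receptor also reported in sperm, was at 2.59, and OR1C1, which responds to linalool, at 2.12. OR2J3, which detects the leaf alcohol of cut grass, was at 2.55, OR2M3, a receptor for an onion thiol, at 2.13, and OR2T11, a receptor for small thiols, at 2.80. OR2W1, a broadly tuned receptor, was at 2.02, and OR3A1, the helional receptor, at 3.76. OR2C1 was at 3.70 and OR2C3 at 3.51, and these are the only members that overlap a protein-coding gene outside the olfactory receptors in RefSeq, ZNF75A (6.90) and GCSAML (2.64).

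**Figure D3:**
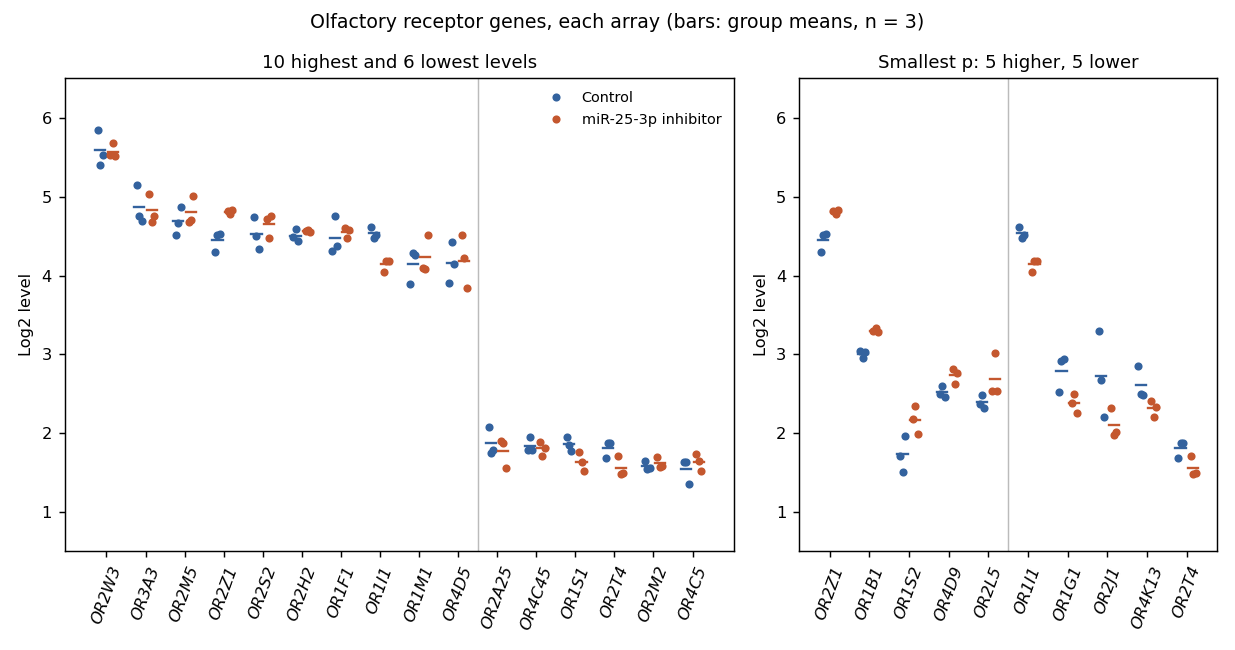
Log2 level (y axis) on each array of control (blue) and inhibitor (orange) cells, with bars at the group means (n = 3), for the 10 highest and 6 lowest members (left) and the 10 members with the smallest p, 5 in each direction (right). The brightest and dimmest members overlap between the groups except OR2Z1, OR1I1 and OR1S1.

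The inhibitor arrays were then compared with the control arrays, to describe how far a set of dim genes differed between the groups. No member passed an adjusted p of 0.05 in limma with Benjamini-Hochberg adjustment over all genes, and 0% of all 18656 genes did. The smallest adjusted p of a member was 0.79. At an unadjusted p under 0.05, 4 members were higher with the inhibitor (2.95% of all genes) and 5 were lower (3.16% of all genes), together 7.50% of the set against 6.12% of all genes. Among genes with 1 probe set it was 7.45% of the 94 members and 10.2% of the 951 other genes. For the 667 of those other genes within the level range of the members it was 10.8%. The 3 arrays of a group did not overlap with those of the other for 7 members on the higher side (5.2% of all genes) and for 6 on the lower side (7.68% of all genes). The counts over the whole set are near the shares over all genes, and the p of 3 against 3 arrays cannot go below 0.1 in an exact test of a single gene.

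The differences were centred near 0. Their median was 0.027 on the log2 scale, against 0.0021 over all genes, with 64 positive and 56 negative. It ran from 0.0067 without control array 2 to 0.045 without control array 1, and was 0.0019 with quantile normalization. They ran from -0.62 to 0.44, and from the 5th to the 95th percentile they spanned -0.25 to 0.26, against -0.22 to 0.24 for all genes. The median absolute difference was 0.11, against 0.091 for all genes. A difference of 0.3 or more in size was found for 6 members (5.00%) and 781 genes (4.19%). Among genes with 1 probe set it was found for 5.32% of the members and 13.5% of the other genes. Of those other genes within the level range of the members, 14.5% had such a difference.

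**Figure D4:**
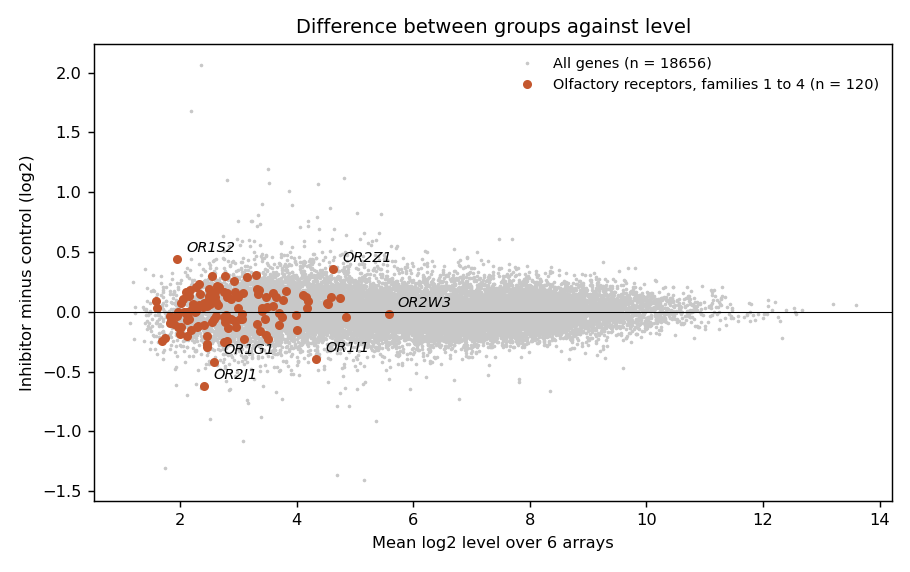
Inhibitor minus control on the log2 scale (y axis) against the mean log2 level over 6 arrays (x axis) for all genes (grey, n = 18656) and the olfactory receptors of families 1 to 4 (orange, n = 120). The members lie at the dim end, between -0.62 (OR2J1) and 0.44 (OR1S2), inside the spread of the other dim genes.

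OR1I1 had the smallest p of the set. It read 4.61, 4.48 and 4.52 on control arrays and 4.05, 4.19 and 4.19 on inhibitor arrays. Every inhibitor array was below every control array, with a difference of -0.39 (SE 0.090, unadjusted p = 0.0020, adjusted p = 0.79 in limma). It has 1 probe set, as do 94 of the 120 members (78.3%) and 5.60% of all genes. In a limma fit over all probe sets, the same values had SE 0.13 and unadjusted p = 0.025. The SE and p of this gene thus depend on whether genes or probe sets are fitted together.

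On the higher side, OR2Z1 read 4.30, 4.52 and 4.53 on control arrays and 4.82, 4.78 and 4.83 on inhibitor arrays. The groups were apart, with a difference of 0.36 (SE 0.095, unadjusted p = 0.0047, adjusted p = 0.79 in limma). OR1B1 read 3.04, 2.95 and 3.03 against 3.29, 3.33 and 3.28, a difference of 0.29 (SE 0.083, unadjusted p = 0.0068, adjusted p = 0.79 in limma). Its groups were apart as well, and each has a single probe set. In the limma fit over all probe sets, OR2Z1 had SE 0.14 and unadjusted p = 0.040. OR1B1 had SE 0.13 and unadjusted p = 0.059 in that limma fit.

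OR1S1 and OR1S2, the members of 1 subfamily, lay on opposite sides. OR1S2 read 1.71, 1.51 and 1.97 on control and 2.18, 2.35 and 1.99 on inhibitor arrays, a difference of 0.44 (SE 0.14). OR1S1 read 1.95, 1.85 and 1.77 on control and 1.76, 1.63 and 1.52 on inhibitor arrays, a difference of -0.22 (SE 0.099). In both the groups were apart but nearly touched, and neither passed the adjusted threshold. In the limma fit over all probe sets the SEs were 0.18 for OR1S2 and 0.14 for OR1S1.

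OR1G1 was the member on the lower side with more than 1 probe set and groups that did not overlap. It read 2.52, 2.91 and 2.95 on control and 2.38, 2.50 and 2.25 on inhibitor arrays, a difference of -0.42 (SE 0.13, unadjusted p = 0.012, adjusted p = 0.79 in limma). All 3 of its probe sets were lower with the inhibitor, by -0.66, -0.36 and -0.23. The brightest, at 3.80, 3.84 and 3.89 against 3.28, 3.41 and 2.87, was apart between the groups and had the smallest adjusted p of all member probe sets, 0.78. Among the 168 member probe sets none passed the adjusted threshold (0% of all 224320), and 4 (2.38%) had an unadjusted p under 0.05 against 6.21% of all, 2 higher and 2 lower.

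OR2J1 had the largest difference of the set but not the smallest p. It read 3.29, 2.68 and 2.21 on control and 2.32, 1.98 and 2.01 on inhibitor arrays. Control array 3 lay within the inhibitor range, and the difference was -0.62 (SE 0.24, unadjusted p = 0.029, adjusted p = 0.79 in limma), or 1.54-fold. Without control array 1 it was -0.34. This value rests on 1 probe set, with SE 0.30 and unadjusted p = 0.080 in the limma fit over all probe sets. The shared probe sets that name OR2J1 together with OR2J2 or OR2J3 differed by -0.033 to 0.043. OR2J1 was the only member past 1.5-fold, a size reached by 72 genes in all, of which 66 were at or below the level of the brightest member, where 47.7% of all genes lie.

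The remaining members with the smallest p were OR4D9 (0.21) and OR2L5 (0.30) on the higher side and OR4K13 (-0.30) and OR2T4 (-0.25) on the lower side. OR4D9, OR2L5 and OR4K13 had groups that did not overlap, and OR2T4 had not. OR2L5 read 2.37, 2.49 and 2.32 on control and 2.53, 3.02 and 2.53 on inhibitor arrays, and the difference was 0.14 without inhibitor array 2, the highest. That of OR4K13 was -0.18 without control array 1. All 7 OR4D genes had positive differences (median 0.16) and all 5 OR1L genes negative ones (median -0.083), each a description of genes that lie in clusters and share arrays. The brightest probe set of OR4D2 (-0.15) and the dimmest of OR4D10 (-0.14) were lower with the inhibitor, and their other probe sets were higher. Of all genes 50.5% had positive differences. The smallest in size were 0.03 for OR4D5 and -0.0067 for OR1L8.

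The spread between replicates was of the size found in other genes with 1 probe set. The replicate SD of a member, pooled within the groups, had a median of 0.16 (quartiles 0.11 and 0.21, range 0.038 to 0.56), against 0.13 for all genes, 0.17 for the other olfactory receptors and 0.17 for taste receptors. Among genes with 1 probe set it was 0.158 for the 94 members and 0.165 for the 951 other genes. For the 667 of those other genes within the level range of the members it was 0.178. The medians within the groups were 0.144 for control and 0.140 for inhibitor arrays.

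OR3A2 was the noisiest member, with a pooled SD of 0.56. It read 2.10, 3.49 and 3.07 on control and 2.81, 2.86 and 2.23 on inhibitor arrays, and the groups overlapped. OR4N4 (SD 0.37) read 2.65, 1.91 and 1.70 on control and 2.22, 2.44 and 2.14 on inhibitor arrays. OR2C3 (SD 0.37) read 4.12, 3.54 and 3.20 on control and 3.55, 3.53 and 3.12 on inhibitor arrays. In OR2C3, OR4N4 and OR2J1, which had the second largest SD (0.41), control array 1 was the highest of the 6 arrays. The sign of the difference turned without control array 2 for OR3A2 (from -0.25 to 0.047), without control array 1 for OR2C3 (from -0.22 to 0.027) and without control array 3 for OR4N4 (from 0.18 to -0.013).

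Control array 1 and inhibitor array 2 read high across the set. Control array 1 was the highest of its group for 54 of the 120 members (45.0%) and for 33.6% of all genes, and inhibitor array 2 for 52 (43.3%) and for 31.4% of all genes. The medians of the members were 2.75, 2.69 and 2.61 on the control arrays and 2.72, 2.75 and 2.73 on the inhibitor arrays. Control array 1 also had the lowest mean correlation with the other arrays over the members, 0.933 against 0.945 to 0.952, as a description. The same held over all genes, at 0.9915 against 0.9933 to 0.9938, so it was not particular to the set. Without it, 7 members were higher at an unadjusted p under 0.05 (3.34% of all genes), and 7 also without control array 2 (2.52% of all genes).

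The genes that act with the receptors in the nose were given by a list of 26, of which 25 were measured. None passed the adjusted threshold in limma. Differences were positive for 17 and negative for 8, while 50.5% of all genes had positive ones. At an unadjusted p under 0.05 in limma there was 1 of the 25, against 6.12% of all genes. It was GRK3, a kinase that desensitises the receptors (0.20, SE 0.085, unadjusted p = 0.041). The arrays of the groups did not overlap for GRK3 on the higher side (5.2% of all genes). Nor did they for ADCY3 (-0.21) and ARRB2 (-0.14) on the lower side (7.68% of all genes). The brightest were general genes: GNB1, a G protein subunit (11.23), SLC12A2, a chloride importer (11.17), and KDM1A, a histone demethylase used in receptor choice (9.82). The dimmest were the transcription factor EMX2 (2.61), the phosphodiesterase PDE1C (3.03) and the chloride channel ANO2 (3.47).

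The parts of the pathway most particular to the neurons were mostly below the median of all genes (5.77). GNAL was at 4.39, CNGB1 at 4.98, CNGA4 at 3.93, CNGA2 at 3.60, and the receptor transport proteins RTP1 and RTP2 at 3.97 and 4.43. Of these, CNGA4, CNGA2 and RTP1 were also below the lower quartile of all genes (4.03). GNG13 was at 4.71, and OMP, at 6.04, was above the median. ADCY3, which cilia of other cells also carry, was at 7.67. It read 7.83, 7.72 and 7.76 on control and 7.65, 7.59 and 7.45 on inhibitor arrays, apart but with an adjusted p of 0.79 in limma (difference -0.21, SE 0.093).

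Epithelial markers matched the label of the line, while some markers of other cell types also passed the median of all genes. All 9 measured of 10 epithelial markers were above that median, with array means of 8.86 to 8.89 for control and 8.78 to 8.88 for inhibitor. They were led by the keratins KRT8 (12.00) and KRT18 (10.53), and the lowest were KRT7 (5.89) and CDH1 (6.11). Of 8 markers of olfactory neurons, 1 was above the median of all genes, OMP (6.04), which had a single probe set, with array means of 4.19 to 4.31 and 4.25 to 4.30. Leukocyte markers had 1 of 5 above that median (array means 4.72 to 4.85 and 4.89 to 4.95). It was LYZ (8.82), which was also above the median of the epithelial markers (8.55). Fibroblast markers had 2 of 5, PDGFRA (6.41) and COL1A1 (6.38), with array means of 4.47 to 4.60 and 4.57 to 4.61. Endothelial markers had 0 of 4 (3.64 to 3.90 and 3.59 to 3.60). The means of the leukocyte markers did not overlap between the groups, nor did those of the endothelial markers, and the part of either in the differences of receptor genes was not tested. Among leukocyte markers CD14 differed most (4.25 in control, 4.71 in inhibitor cells). PTPRC and CD3E were higher by less, and CD79A and LYZ were lower with the inhibitor. Among endothelial markers PECAM1 differed most (3.61 and 3.15), and VWF, CDH5 and KDR were lower by less.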

How the data were processed

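Messenger RNA was measured on 6 Human Gene 1.0 ST arrays. The deposited table holds log2 values for 257430 probe sets. Per the submitters' processing notes, the authors used RMA with the Expression Console and the Transcriptome Analysis Console of Affymetrix, and versions are not given in the sources used here. RMA gives arrays nearly 1 distribution (medians 6.02 to 6.07), so a shift shared by most genes would not show. Precision is limited by the number of arrays.

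In the platform annotation, 224320 probe sets named 1 gene, 10159 several and 22951 were unnamed here. Symbols were updated through RefSeq (GRCh38.p14). The value of a gene was the mean over its single-gene probe sets, with no filter on dim genes. Of the 120 members, 118 had a current symbol, and 116 are protein coding and 4 transcribed pseudogenes in RefSeq. Groups were compared with limma 3.58.1 (R 4.3.3, lmFit and eBayes) on all 18656 genes with Benjamini-Hochberg adjustment, tested on simulated data. The fit was without a replicate block. The members and lists were chosen with earlier results of these data known.

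The text names the 10 highest and 6 lowest members, the 5 with the smallest p in each direction, the 4 with the largest replicate SD, the 2 with the widest range between probe sets, listed receptors with a known odorant or reported outside the nose, and the extremes of the signalling list. A further part of the rule, members with near-identical proteins, was not applied, since protein sequences were not used here. Alternatives were the replicate block, each array left out, quantile and median normalization, the median or brightest probe set, filters on dim probe sets and genes, a wider name rule and another variance estimate. Counting identical probe sets once was added after seeing the data. OR2H1, OR1S1 beside OR1S2, the subfamilies OR4D and OR1L, and the neighbours on the chromosome were picked after their values were seen.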

Additional observations from a re-analysis of the deposited data

Results flagged for a closer look

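A probe set that names both OR2T3 and OR2T34 was left out of every gene value because it cannot be given to 1 gene. It read 3.09, 3.30 and 3.34 on control arrays and 3.49, 3.60 and 3.64 on inhibitor arrays, so that each inhibitor array was above each control array, with a difference of 0.33 on the log2 scale. It stands here because it lies outside the main measurement and above the level of the controls. A second probe set that names the same genes differed by 0.13, with groups that overlapped. Of the 37 shared probe sets that name a gene of the rule, 1 (this one) was wholly above the controls and 2 were wholly below. Over all genes 5.2% were wholly above and 7.68% wholly below. The difference was not tested.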

How the results depend on the processing

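In each setting tried, no member, signalling gene, other olfactory receptor or taste receptor passed the threshold, and the smallest adjusted p of a member ran from 0.70 to 0.91 in limma. Among all genes 1 was called without control replicate 3. Leaving out 1 array moved the members at an unadjusted p under 0.05 to between 4 and 7 higher and 3 and 6 lower, against 2.29% to 3.82% and 2.30% to 3.39% of all genes. It moved those without overlap, with fewer arrays to separate, to between 8 and 19 higher and 8 and 13 lower, against 9.32% to 12.0% and 11.8% to 14.7% of all genes. It moved the median replicate SD to between 0.144 and 0.163.

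The lower count at an unadjusted p under 0.05 was 8 with quantile normalization (3.22% of all genes), 2 with the median of probe sets (3.08%), 2 with the brightest (3.35%) and 3 with a trended, robust variance (3.54%), and the cause was not tested. Without the dimmest 30% of genes 7 members were left, 1 higher and 0 lower (3.03% and 4.05% of the genes tested). Without the dimmest 30% of probe sets 9 were left, with a median level of 4.85, a median difference of 0.077, a median replicate SD of 0.179, 1 higher and 0 lower at an unadjusted p under 0.05 (3.05% and 3.48% of the genes tested), and 2 higher and 0 lower without overlap (5.48% and 8.20%). The median level was 2.78 with the brightest probe set. OR2W3 was at 6.49 with identical probe sets counted once, at 4.67 with the median and at 8.31 with the brightest. The difference of OR2C3 was 0.01 with the brightest probe set and 0.027 without control replicate 1, that of OR3A2 0.01 and, without control replicate 2, 0.047, and that of OR4N4 -0.013 without control replicate 3. Over the arrays left out these 3 differences ran from -0.43, -0.65 and -0.013 to 0.027, 0.047 and 0.46.

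The deviations of same-numbered arrays correlated at -0.032, -0.040 and 0.17 over all genes, and the numbers are not treated as pairs. With the replicate block the median replicate SD was 0.135, 5 members were higher and 5 lower at an unadjusted p under 0.05 (3.24% and 2.98% of all genes), and 0 passed the threshold.

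Most members rest on 1 dim probe set, background signal was not measured here, and no level here separates a silent gene from a weak one.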

Other observations

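Receptor genes with near-identical copies were read by shared probe sets, which entered no gene value. There were 37 such probe sets, 31 with distinct values, and they named 42 genes of the rule, 24 of them nowhere else. Their levels ran from 2.16 to 5.49 with a median of 3.41. In both probe sets shared by OR1D4 and OR1D5 every inhibitor array was below every control array. The first read 3.20, 3.32 and 3.01 on control and 2.81, 2.64 and 2.44 on inhibitor arrays, and the second 3.88, 3.85 and 3.85 against 3.22, 3.51 and 3.82. The differences were -0.55 and -0.34. Of the 37 shared probe sets these 2 were wholly below the controls (7.68% of all genes) and 1 was wholly above (5.2% of all genes). The 2 probe sets were singled out after their values were seen, and no test was made.

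A probe set shared by OR4D10 and OR4D11 had the widest spread between replicates, at 5.46, 5.27 and 3.73 on control and 4.58, 6.12 and 5.02 on inhibitor arrays. The probe sets that name OR2J2, a receptor with known odorants, also name OR2J1 and averaged 2.72, 2.72 and 2.71. The probe set of OR4M1, reported outside the nose, also names OR4M2 and averaged 2.31.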
